A study of Mus musculus with 21 samples.

Results

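Potassium channel genes were taken as all protein-coding genes of the RefSeq annotation of mm10 (GRCm38.p6) whose symbol starts with Kcn, and 94 of 21887 genes met that rule. By subunit type the 94 comprised 30 voltage-gated pore-forming genes (Kcna, Kcnb, Kcnc, Kcnd, Kcnh and Kcnq), 10 modulatory voltage-gated genes (Kcnf, Kcng, Kcns and Kcnv) and 15 inward rectifiers (Kcnj). They also comprised 14 tandem-pore leak channels (Kcnk), 8 ion-activated channels (Kcnma1, Kcnn, Kcnt and Kcnu1), 16 auxiliary subunits (Kcnab, Kcne, Kcnip and Kcnmb) and Kcnrg, a regulator that is not a channel. The samples were basal ganglia primordia, the ganglionic eminences, of CD1 mouse embryos. ChIP-seq of E13.5 (embryonic day) tissue covered CHD4, HDAC1, HDAC2, MBD3, RBBP4 and RBBP7, with 1 library per protein and 3 input libraries, in cells fixed with DSG and then PFA. ATAC-seq at E12.5 compared Dlx1/2 knockout (KO) with wild-type (WT) embryos in the FTneg fraction, which the labels place in the subventricular zone and mantle, and in the FTpos fraction of the ventricular zone, with 3 embryos per genotype and fraction. The KO embryos lacked both Dlx1 and Dlx2. The embryos are combined in each accessibility list, and the same embryo numbers recur in both fractions.

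Potassium channels let potassium ions leave or enter cells and so set the resting potential, shape the action potential and limit firing rate, and GABAergic interneurons born in the ganglionic eminences later depend on Kcnc channels for fast spiking. The 6 proteins profiled by ChIP are subunits of NuRD, which couples nucleosome remodelling by CHD4 with histone deacetylation by HDAC1 and HDAC2. RBBP4 and RBBP7 bind histones and also belong to other chromatin complexes. The homeodomain proteins DLX1 and DLX2 direct precursors of the ventral forebrain towards GABAergic neurons.

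Each ChIP library gives 1 list of peaks, each with the fold enrichment over input that the authors' caller computed. No list has a replicate and the depth is unknown, so no test between samples was possible. Shares of Kcn genes stand here beside the share of all protein-coding genes, and Wilson 95% intervals cover counting error over genes only. The lists held 5517 to 29762 peaks, and a longer list reaches more genes. For 3 samples the attached list carries the name of another subunit, so these are called by the sample label as the CHD4-labelled list (which carries the name HDAC1), the HDAC1-labelled list (which carries HDAC2) and the HDAC2-labelled list (which carries CHD4). RNA was not measured, so neither the tissue nor the activity of a channel gene could be checked against expression. At the targeted locus, chr2:71528113-71546754, the WT-higher lists held 5 of their 53 regions in FTneg and 5 of their 33 in FTpos, and the KO-higher lists held 0.

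Promoters are shown for a selection of the channel genes at which several lists met and for 1 gene without a peak. The capitals mark CG dinucleotides. Kcna10 was chosen after its values were seen. Each sequence runs 5′ to 3′ from 250 bases before to 50 bases after a RefSeq start site (GRCm38.p6). Kcnma1 encodes the large-conductance calcium-activated channel, and peaks of all 6 lists overlapped its promoter at chr14:24004156-24004455 on the minus strand. Kcnc1 encodes a fast delayed rectifier, and 4 lists overlapped its promoter at chr7:46396218-46396517 on the plus strand. Kcnmb4 encodes an auxiliary subunit of the Kcnma1 channel, and 4 lists overlapped its promoter at chr10:116473474-116473773 on the minus strand. Kcna3 encodes a Shaker-type channel, with 4 lists at chr3:107035912-107036211 on the plus strand. Kcnk10 encodes a leak channel opened by stretch and lipids, and 4 lists overlapped the promoter of its inner start at chr12:98575078-98575377 on the minus strand. Kcna10, a Shaker-type gene of the same cluster as Kcna3, had no peak at its promoter, chr3:107182893-107183192 on the plus strand.
Kcnma1: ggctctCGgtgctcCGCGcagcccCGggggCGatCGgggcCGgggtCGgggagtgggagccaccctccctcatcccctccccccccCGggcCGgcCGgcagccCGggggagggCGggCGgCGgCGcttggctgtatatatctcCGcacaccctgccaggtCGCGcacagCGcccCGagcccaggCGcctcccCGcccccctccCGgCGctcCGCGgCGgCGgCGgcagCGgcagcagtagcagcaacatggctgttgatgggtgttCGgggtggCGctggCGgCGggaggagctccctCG
Kcnc1: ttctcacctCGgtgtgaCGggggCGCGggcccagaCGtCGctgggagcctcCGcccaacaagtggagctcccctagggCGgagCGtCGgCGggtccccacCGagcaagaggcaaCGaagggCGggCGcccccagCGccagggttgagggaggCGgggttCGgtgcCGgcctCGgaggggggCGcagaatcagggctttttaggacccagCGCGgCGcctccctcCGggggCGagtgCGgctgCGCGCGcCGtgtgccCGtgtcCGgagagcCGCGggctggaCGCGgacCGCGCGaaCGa
Kcnmb4: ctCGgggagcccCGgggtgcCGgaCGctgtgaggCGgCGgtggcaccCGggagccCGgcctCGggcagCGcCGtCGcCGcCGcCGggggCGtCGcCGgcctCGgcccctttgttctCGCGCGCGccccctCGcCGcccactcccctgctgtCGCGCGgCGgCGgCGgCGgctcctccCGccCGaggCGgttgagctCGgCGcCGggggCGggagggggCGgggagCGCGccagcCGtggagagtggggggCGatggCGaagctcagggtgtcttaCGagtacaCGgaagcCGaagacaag
Kcna3: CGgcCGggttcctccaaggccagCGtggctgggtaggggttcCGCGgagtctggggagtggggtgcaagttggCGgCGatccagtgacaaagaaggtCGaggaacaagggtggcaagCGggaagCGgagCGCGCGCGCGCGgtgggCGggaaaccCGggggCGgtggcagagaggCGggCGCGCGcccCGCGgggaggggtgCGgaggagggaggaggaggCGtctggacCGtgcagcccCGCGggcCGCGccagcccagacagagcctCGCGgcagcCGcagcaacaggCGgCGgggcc
Kcnk10, inner start: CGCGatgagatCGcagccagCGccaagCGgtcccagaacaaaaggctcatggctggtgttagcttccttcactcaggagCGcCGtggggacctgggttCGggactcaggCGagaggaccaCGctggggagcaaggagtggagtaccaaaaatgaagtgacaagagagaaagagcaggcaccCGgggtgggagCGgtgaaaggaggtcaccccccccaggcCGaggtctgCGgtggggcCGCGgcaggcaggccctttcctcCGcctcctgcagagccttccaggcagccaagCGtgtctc
Kcna10: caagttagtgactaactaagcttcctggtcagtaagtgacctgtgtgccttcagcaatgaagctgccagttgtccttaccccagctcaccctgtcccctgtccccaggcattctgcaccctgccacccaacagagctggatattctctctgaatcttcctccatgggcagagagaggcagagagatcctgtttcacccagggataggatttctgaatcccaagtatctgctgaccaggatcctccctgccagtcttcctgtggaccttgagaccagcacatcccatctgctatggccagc
The promoters held 36 CG pairs at Kcnma1, 41 at Kcnc1, 48 at Kcnmb4, 37 at Kcna3, 18 at the inner start of Kcnk10 and 0 at Kcna10. Across the 32851 promoters of the same length in the RefSeq table the median was 7 CG pairs, and 1.22% of them held as many as Kcnmb4 or more. Peaks were not limited to promoters rich in CG pairs, since the outer start of Kcnk10 has 7 CG pairs and 2 lists. Kcnn1, with all 6 lists at its ends, has a start with 13 CG pairs, above the median, and 4 lists. Another of its starts has 16 CG pairs and no list. Of the 4 lists, MBD3 had a summit near that first start, at chr8:70863523. The RBBP4 and CHD4-labelled summits lay near the outer gene end, at chr8:70865604 and chr8:70865717. The RefSeq table held no start there, so the CG pairs under these summits were not counted. GGGCGG, searched on both strands, was found in the promoters of Kcnma1, Kcnc1, Kcnmb4 and Kcna3, against 35.7% of all promoters in the table. Among promoters read but not printed, it was in those of Kcnk12, Kcnk5, Kcnh7, the outer Kcnk10 start and the Kcnn1 start without a list. It was absent from those of Kcnd3 and the Kcnn1 start with 4 lists. TAATTA, which reads the same on both strands, was in none of the 6 printed sequences, against 5.29% of all promoters. These matches describe letters and not binding sites. The table held a promoter for 69 of the 94 genes (73.4%), so a comparison of sequence content over the whole family is void and is not given.

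A larger share of potassium channel genes than of all genes had an RBBP4 end peak, and a smaller share one of the CHD4-labelled list. Gene ends were the outermost annotated coordinates, so a peak at a start farther inside the gene counted as interior. A peak within 1 kb of either annotated gene end was present in the RBBP4 list at 59 of 94 Kcn genes (62.8%, interval 52.7 to 71.9), against 46.3% of all genes. The RBBP7 list had one at 17 Kcn genes (18.1%, interval 11.6 to 27.1), against 12.1% of all genes. The MBD3 list had one at 23 Kcn genes (24.5%, interval 16.9 to 34.0), against 23.1% of all genes, a share near the background. In the CHD4-labelled list the count was 32 Kcn genes (34.0%, interval 25.3 to 44.1), against 44.2% of all genes. In the HDAC1-labelled list it was 20 Kcn genes (21.3%, interval 14.2 to 30.6), against 27.1%, which lies inside the interval. In the HDAC2-labelled list it was 10 Kcn genes (10.6%, interval 5.88 to 18.5), against 9.76%, again near the background.

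The shortfall of the CHD4-labelled and HDAC1-labelled lists did not hold among genes that stand alone. Another protein-coding gene end lay within 2 kb of an end of 19 Kcn genes (20.2%), against 32.2% of all genes. Among the 75 other Kcn genes, the CHD4-labelled list had an end peak at 28 (37.3%), against 34.8% of all such genes, and the HDAC1-labelled list at 18 (24.0%), against 22.5%. The RBBP4 difference was present there too, with 49 Kcn genes (65.3%) against 40.2% of all such genes.

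**Figure D1:**
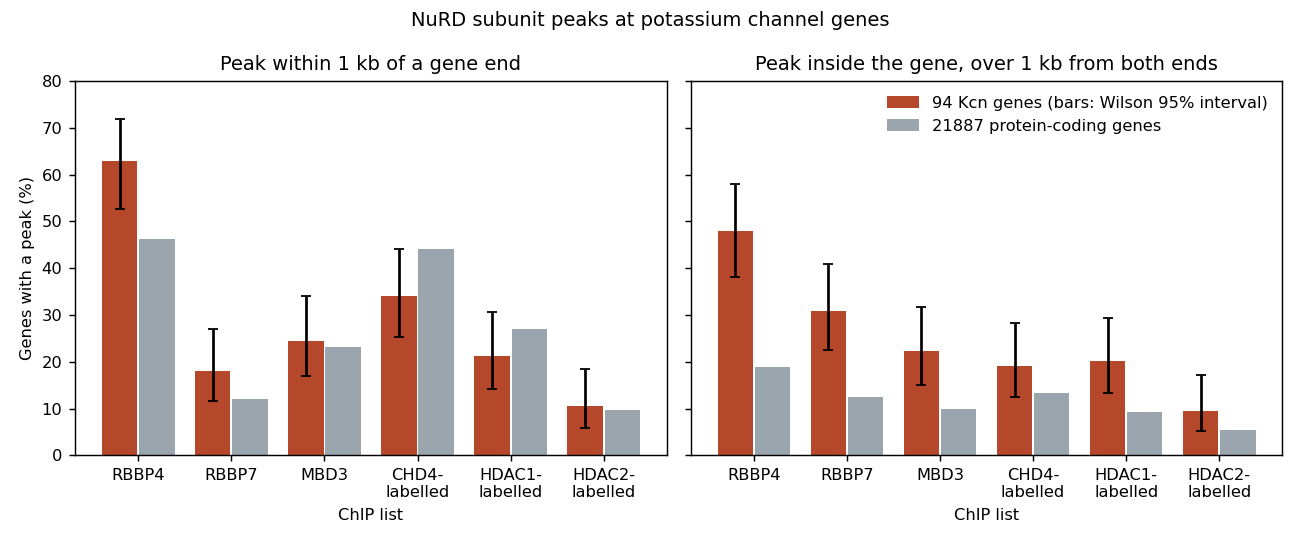
Percentage of genes with a peak within 1 kb of a gene end (left) and more than 1 kb inside the gene (right) in each of the 6 ChIP lists, for 94 Kcn genes (first bar of each pair, with Wilson 95% intervals over genes) and all 21887 protein-coding genes (second bar). The RBBP4 bar of Kcn genes stands at 62.8% at ends and at 47.9% inside genes, above 46.3% and 18.8% of all genes.

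Counting any list, 63 Kcn genes (67.0%) had an end peak, against 55.4% of all genes, and 31 (33.0%, interval 24.3 to 43.0) had none, against 44.6%. With every list shortened to its 5517 peaks of highest −log10 q that difference turned round, with no end peak at 62 Kcn genes (66.0%) against 62.6% of all genes. A single list accounted for the end peaks of 19 Kcn genes (20.2%), against 11.3% of all genes. Of these 19 genes, 15 (78.9%) had RBBP4 alone, against 47.5% of the 2466 such genes in the genome, and 3 (15.8%) had the CHD4-labelled list alone, against 46.4%. The single-list Kcn genes were thus mostly RBBP4 genes, while in the genome RBBP4 and the CHD4-labelled list took nearly equal shares. At the other extreme, 8 Kcn genes (8.51%) had 5 or 6 lists at their ends, against 9.61% of all genes, and 4 (4.26%) had all 6, against 2.92%.

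Inside the genes, the share of Kcn genes with a peak lay above that of all genes in each list, before gene length is considered. A peak more than 1 kb from both ends was present in the RBBP4 list at 45 Kcn genes (47.9%), against 18.8% of all genes, and in the RBBP7 list at 29 (30.9%), against 12.4%. The MBD3 list had one at 21 Kcn genes (22.3%), against 9.86% of all genes. Interior peaks of the CHD4-labelled list were at 18 Kcn genes (19.1%) against 13.3%, of the HDAC1-labelled list at 19 (20.2%) against 9.32%, and of the HDAC2-labelled list at 9 (9.57%) against 5.31%. For the CHD4-labelled and HDAC2-labelled lists the share of all genes lay inside the interval of the Kcn share.

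Counted over the gene body, ends included, the RBBP4 list had a peak at 73 Kcn genes (77.7%), against 50.8% of all genes, and the RBBP7 list at 38 (40.4%), against 19.5%. The body counts were 36 (38.3%) against 26.8% for MBD3, 35 (37.2%) against 29.4% for the HDAC1-labelled list and 15 (16%) against 11.6% for the HDAC2-labelled list. For the CHD4-labelled list the order was the other way round, with 34 Kcn genes (36.2%) against 48.2% of all genes.

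Kcn genes were long, with a median length of 32.7 kb and a range of 1.45 to 1140 kb, against a median of 17.2 kb over all genes, and longer genes have more room for a peak. Per 100 kb of gene body, Kcn genes held 1.43 RBBP4 peaks and all genes 1.99, the reverse of the order of the body shares. The order was also reversed for RBBP7 (0.655 against 0.815) and MBD3 (0.543 against 0.818). The same held for the HDAC1-labelled list (0.534 against 0.895) and the HDAC2-labelled list (0.206 against 0.321). The CHD4-labelled list held 0.496 in Kcn genes and 1.48 in all genes, the same order as its body shares. Within length classes the RBBP4 interior share was 19.4% of Kcn genes under 20 kb, against 6.58% of all genes of that length. It was 48.6% against 22.1% from 20 to 100 kb, and 91.3% against 68.5% at 100 kb or more. RBBP7 interior peaks were at 2.78% of Kcn genes under 20 kb, against 2.87% of all, at 34.3% against 12.8% from 20 to 100 kb, and at 69.6% against 57.7% at 100 kb or more. The RBBP4 difference was thus present in every length class, while for RBBP7 it was absent in the shortest class. In other lists the order turned round in 1 class. MBD3 interior peaks were at 0% of Kcn genes under 20 kb, against 2.88% of all, at 25.7% against 10.2% in the middle class and at 52.2% against 42.8% in the longest. Those of the CHD4-labelled list were at 5.56% of Kcn genes against 4.94%, at 8.57% against 15.8%, and at 56.5% against 46.4%, from the shortest class to the longest. For the HDAC1-labelled list, whose order was the same in each class, the shares were 13.9% against 3.3%, 14.3% against 10.1% and 39.1% against 36.2%. For the HDAC2-labelled list they were 2.78% against 1.17%, 11.4% against 5.14%, and, with the order turned round, 17.4% of the longest Kcn genes against 26.0%.

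At gene ends length had another pattern. RBBP4 end peaks were at 50% of Kcn genes under 20 kb, against 36.2% of all genes of that length, at 71.4% against 54.8% in the middle class, and at 69.6% against 68.8% in the longest. End peaks of the CHD4-labelled list were at 13.9% of the 36 Kcn genes under 20 kb, against 35.5%, at 42.9% of the 35 of middle length, against 53.8%, and at 52.2% of the 23 longest, against 56.7%. The widest gap for the CHD4-labelled list therefore lay at the short channel genes. Across the 94 genes, Spearman's rho between length and number of interior peaks was 0.657 and between length and number of lists at the ends 0.27, given as a description of genes that share the same libraries.

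The height of the peaks at Kcn genes was close to that at all genes in most lists. The median fold enrichment of end peaks was 4.73 at Kcn genes and 4.88 at all genes for RBBP4, 5.5 and 5.54 for RBBP7, and 4.61 and 4.56 for MBD3. It was 5.04 at Kcn genes and 5.23 at all genes for the HDAC1-labelled list, and 4.05 and 4.13 for the HDAC2-labelled list. The CHD4-labelled list had the widest gap of the 6, with a median of 5.02 over 42 end peaks of Kcn genes and 6.29 over those of all genes.

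Among the pore-forming voltage-gated genes, which open on depolarisation, end peaks were present at nearly all members. RBBP4 was at the ends of 26 of 30 (86.7%, against 46.3% of all genes). RBBP7 was at 8 (26.7% against 12.1%) and MBD3 at 10 (33.3% against 23.1%). The HDAC1-labelled list was there at 11 (36.7% against 27.1%). The CHD4-labelled list was at 15 of the 30, against 44.2% of all genes. The HDAC2-labelled list was at 3 of the 30, near the 9.76% of all genes. Only 4 of the 30 (13.3%) had no end peak, namely Kcna10, Kcnd1, Kcnh1 and Kcnh6. That share was 33.0% for all Kcn genes and 44.6% for all protein-coding genes. At least 3 lists met at the ends of 13 of the 30 (43.3%), against 28.7% of all Kcn genes and 31.3% of all protein-coding genes.

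Kcnb2, a delayed rectifier subunit, had all 6 lists in 1 merged region at its lower-coordinate end, chr1:15286138-15288028. Fold enrichment there was 7.77 for RBBP4, 5.5 for RBBP7, 6.28 for MBD3, 4.45 for the CHD4-labelled list, 5.99 for the HDAC1-labelled list and 4.76 for the HDAC2-labelled list. Kcnq3, a subunit of the M-current channel, had all 6 lists at its higher-coordinate end, chr15:66285071-66287039. Its values were 4.73 for RBBP4, 5.83 for RBBP7, 4.66 for MBD3, 5.64 for the CHD4-labelled, 5.88 for the HDAC1-labelled and 4.05 for the HDAC2-labelled list. Both genes are described because all 6 lists were at their ends, so the presence of each list there follows from that choice.

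At Kcnc1 all 6 lists merged into 1 region of 2110 bp, chr7:46396056-46398165, at the start whose promoter is printed above. The HDAC2-labelled peak of that region, at 4.01, began more than 1 kb from the end and so counts as interior, which leaves Kcnc1 with 5 lists at its ends. RBBP4 was highest there at 7.12. Kcna3, a gene of 1.97 kb, had 5 lists in chr3:107035496-107037754, with 5.89 for RBBP4, 7.11 for RBBP7, 4.92 for MBD3, 6.78 for the CHD4-labelled and 5.35 for the HDAC1-labelled list. The HDAC2-labelled list was missing at its ends.

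Kcnd3, which carries the transient A-type current, had more peaks than any other Kcn gene, 30 in the body and 1 kb around it. RBBP4 and MBD3 each gave 8 of them, RBBP7, the CHD4-labelled and the HDAC1-labelled list 4 each, and the HDAC2-labelled list 2. The MBD3 peak at its start, in chr3:105450739-105453928, reached 10.6, the highest MBD3 value at any Kcn end. All 6 lists met in its interior at chr3:105529515-105531457, where the values were 7.04 for RBBP4, 6.68 for RBBP7, 4.90 for MBD3, 7.05 for the CHD4-labelled, 6.71 for the HDAC1-labelled and 4.33 for the HDAC2-labelled list. The nearest summit there lay 77863 bp from an annotated Kcnd3 start.

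Kcnh7, of the ether-à-go-go family, had 17 of its 19 peaks in the interior and held a pair of regions with all 6 lists. At chr2:62806942-62809400 RBBP7 was highest at 12.2, followed by 8.88 for the CHD4-labelled list, 8.56 for RBBP4, 7.56 for the HDAC1-labelled list, 6.0 for MBD3 and 4.14 for the HDAC2-labelled list. At chr2:63117153-63118494 RBBP7 was again highest at 13.4, followed by 7.91 for RBBP4, 6.54 for MBD3, 6.46 for the HDAC1-labelled, 5.78 for the HDAC2-labelled and 4.77 for the CHD4-labelled list. At the ends of Kcnh7, by contrast, RBBP4 at 3.12 and the CHD4-labelled list at 5.5 were the only ones. Kcnq3 had 17 peaks in all and Kcnq5, another M-current subunit, 11. RBBP7 gave 4 of the interior peaks of Kcnq5 and reached 14.0 at chr1:21411534-21412408, where no other list had a peak.

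**Figure D2:**
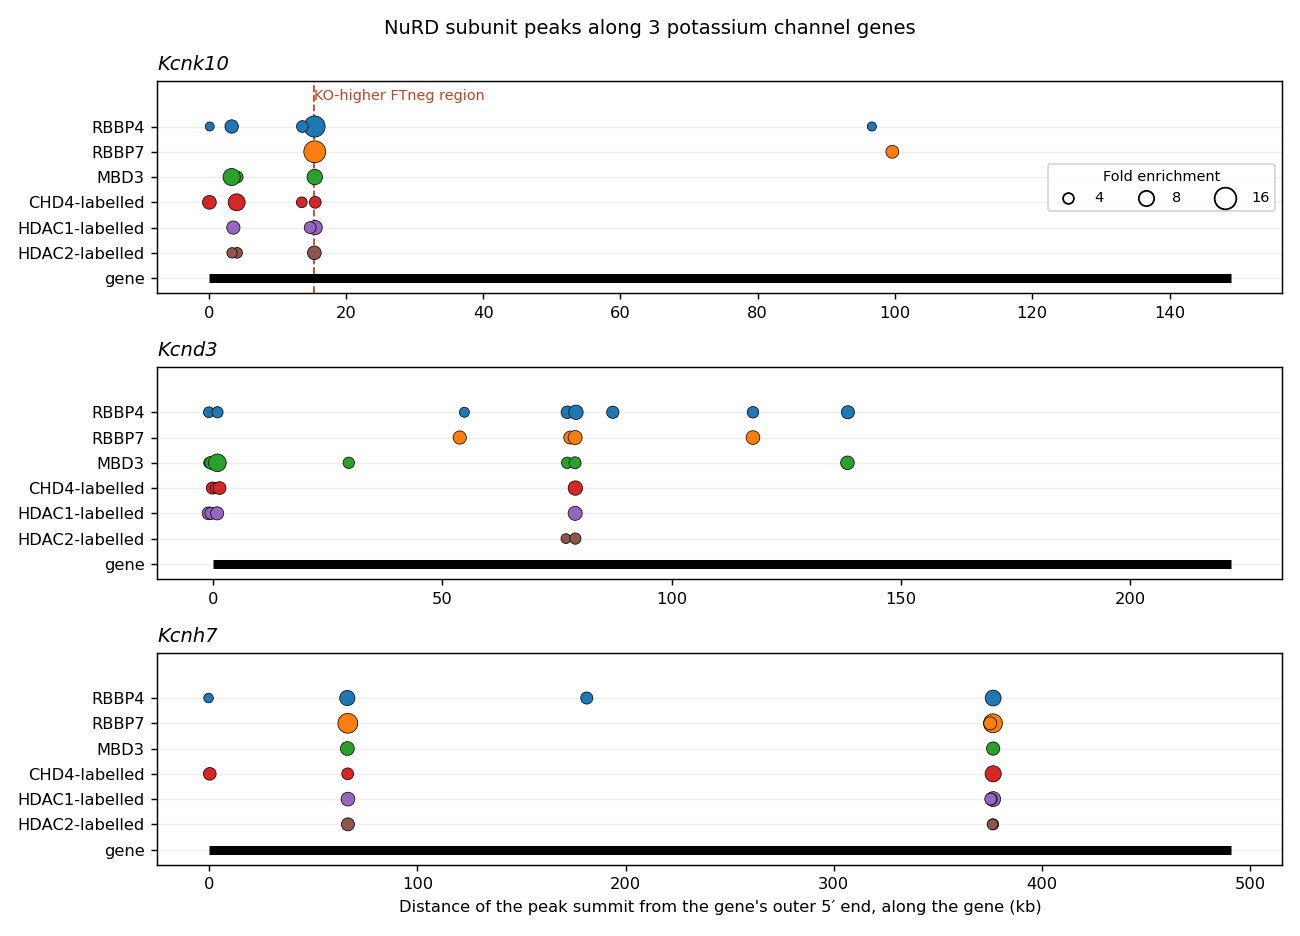
Summits of the peaks of the 6 ChIP lists along Kcnk10, Kcnd3 and Kcnh7, by distance in kb from the gene's outer 5′ end, with the area of a circle rising with fold enrichment over input and the black bar showing the gene. The dashed line marks the KO-higher FTneg accessibility region inside Kcnk10, which falls on the column where all 6 lists have a peak and where RBBP4 is at 15.3 and RBBP7 at 16.3.

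The 10 modulatory voltage-gated genes encode subunits that do not form channels by themselves and alter Kcnb channels. RBBP4 was at the ends of 8 of them, MBD3 at 4, and RBBP7 and the HDAC1-labelled list at 3 each. Neither the CHD4-labelled nor the HDAC2-labelled list had an end peak at any of the 10, against 44.2% and 9.76% of all genes. The width of the window bears on this count of 0 at Kcnv1 only. The other genes of the 10 had no peak of either list in the body or 1 kb around it. At Kcnv1 the peaks of the CHD4-labelled list, at 6.93, and of the HDAC2-labelled list, at 3.88, merge with the RBBP4 and MBD3 end peaks into chr15:45114011-45115041 but lie just beyond 1 kb from the gene end, a case singled out after its values were seen. Kcng4 and Kcnv2 had no peak at their ends or in their bodies.

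Inward rectifiers pass potassium more easily into than out of the cell, and Kcnj10 is the main one of glia. Of the 15 genes, RBBP4 was at the ends of 7 (46.7%, against 46.3% of all genes) and RBBP7 at 2 (13.3% against 12.1%). Both shares were near the background. The CHD4-labelled list was at 4 (26.7% against 44.2%) and the HDAC1-labelled list at 1 (6.67% against 27.1%). MBD3 and the HDAC2-labelled list were at none, against 23.1% and 9.76%. MBD3 did have peaks within 1 kb of annotated inner starts of Kcnj3 and Kcnj4, and the HDAC2-labelled list of Kcnj4. These count as interior. No end peak was found at 6 (40.0%), near the 44.6% of all genes. Kcnj12 was the only inward rectifier with 3 lists at its ends, at chr11:61021671-61023429. Its HDAC1-labelled peak of 9.59 was the highest of that list at any Kcn end, beside 6.57 for the CHD4-labelled list and 6.01 for RBBP4. Counted within 1 kb of the annotated starts instead, Kcnj12 had 0 lists, Kcnj4 had 3 and Kcnj3 had 4. Kcnj1, Kcnj13, Kcnj14, Kcnj15 and Kcnj16 had no peak at the ends or in the body.

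Tandem-pore channels carry the leak current that sets the resting potential. RBBP4 was at the ends of 8 of 14 (57.1%, against 46.3% of all genes). MBD3 was at 3 (21.4% against 23.1%) and RBBP7 at 1 (7.14% against 12.1%). The CHD4-labelled list was there at 5 (35.7% against 44.2%). The HDAC1-labelled and HDAC2-labelled lists were at 2 each (14.3%, against 27.1% and 9.76%). No end peak was found at 6 (42.9%), near the 44.6% of all genes. Of these 6, Kcnk1, Kcnk2 and Kcnk13 had peaks within 1 kb of an annotated inner start, which count as interior. The group held the highest values of most lists, at a few of its members. Kcnk12, which encodes a subunit of the halothane-inhibited type, had 5 lists at its ends, and its RBBP4 peak of 10.1 and RBBP7 peak of 7.81 at chr17:87745138-87747114 were the highest of these lists at any Kcn end. That region lies at the far end of the gene from its RefSeq start, where chr17:87796460-87798786 held 9.65 for RBBP4, 5.85 for the CHD4-labelled, 5.60 for the HDAC1-labelled list and 3.01 for MBD3. Inside Kcnk12, MBD3 reached 11.6 at chr17:87773453-87774177, its highest value in the interior of a Kcn gene. Kcnk5, an acid-sensitive leak channel, had the highest end peak of the CHD4-labelled list, 10.7, at its start in chr14:20180402-20182017. Kcnk4 had the highest end peak of the HDAC2-labelled list, 6.72, at chr19:6924525-6924875, the end that lies near Catsperz. Kcnk2, which encodes a stretch-activated leak channel related to Kcnk10, had the highest interior peak of the HDAC1-labelled list, 7.84, at an annotated inner start.

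Kcnk10 had 20 peaks, 18 of them interior, and was the member with the tallest peaks. At chr12:98562160-98563613, 11714 bp from the nearest annotated start, fold enrichment was 15.3 for RBBP4, 16.3 for RBBP7, 8.12 for MBD3, 4.77 for the CHD4-labelled, 7.04 for the HDAC1-labelled and 6.43 for the HDAC2-labelled list. The RBBP4 value stood at percentile 99.8 and the RBBP7 value at percentile 99.2 of their own lists. A second interior region, chr12:98572354-98575738, covers the inner start whose promoter is printed above, and there MBD3 reached 10.0, the CHD4-labelled list 9.80, RBBP4 6.17, the HDAC1-labelled list 5.96 and the HDAC2-labelled list 3.94. RBBP7 had no peak in it. At the outer start only RBBP4, at 2.75, and the CHD4-labelled list, at 6.41, had a peak, so the lists were fewer at the gene end than inside the gene.

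Channels opened by calcium or sodium rather than by voltage alone, with the related Kcnu1, made up the ion-activated group. RBBP4 was at the ends of 5 of 8, the CHD4-labelled list at 4, MBD3 and the HDAC2-labelled list at 3 each, and RBBP7 and the HDAC1-labelled list at 2 each. Kcnu1, a gene known from sperm, and Kcnn4 had no end peak. Kcnma1 had all 6 lists at its start, chr14:24003316-24005325, with 8.40 for the HDAC1-labelled list, 6.68 for RBBP7, 6.20 for RBBP4, 4.77 for the CHD4-labelled list, 4.16 for MBD3 and 2.99 for the HDAC2-labelled list. The gene spans 713 kb, yet 10 of its 12 peaks lay within 1 kb of the start. Kcnn1, which encodes a small-conductance calcium-activated channel, had all 6 lists in chr8:70862868-70866162, with 8.80 for RBBP4, 6.79 for the CHD4-labelled list, 5.98 for RBBP7, 5.08 for the HDAC1-labelled list, 4.86 for MBD3 and 3.29 for the HDAC2-labelled list. Its relatives Kcnn2 and Kcnn3 were different in layout, since 11 of the 13 peaks of Kcnn2 and 13 of the 14 peaks of Kcnn3 were interior. Kcnn3 had 1 list at its ends, and its interior peaks came from RBBP4 and RBBP7, 5 each, MBD3, with 2, and the CHD4-labelled list, with 1.

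Auxiliary subunits had the lowest share of genes with any end peak and with an RBBP4 end peak among the groups of more than 1 gene. Inward rectifiers had the lowest share with 3 or more lists at the outermost ends, 6.67% against 18.8% of auxiliary genes. RBBP4 was at the ends of 5 of 16, MBD3 at 3 and RBBP7 at 1, and the CHD4-labelled list was there at 4, the HDAC1-labelled one at 1 and the HDAC2-labelled one at 2. No end peak was found at 10 (62.5%, against 44.6% of all genes), among them all 5 Kcne genes, which encode subunits with a single membrane span. Of these 10, Kcne3, Kcnab1 and Kcnip1 had peaks within 1 kb of an annotated inner start, which count as interior. Kcnmb4 was the exception, with 5 lists at its ends and 11 peaks, all at the start. A region upstream of the start, chr10:116473861-116474700, had 7.80 for the CHD4-labelled list, 6.87 for MBD3, 5.32 for the HDAC1-labelled list, 4.71 for RBBP4 and 4.2 for the HDAC2-labelled list. A neighbouring region, chr10:116472722-116473658, reached 5.68 for the HDAC2-labelled list, 4.65 for MBD3, 4.48 for the HDAC1-labelled list and 3.86 for RBBP4. Kcnip1, a calcium-binding partner of Kcnd channels, had 15 peaks, all interior, of which RBBP4 gave 8. 4 lists met at chr11:33772516-33773137, where RBBP4 was at 7.72, RBBP7 at 4.53, MBD3 at 4.44 and the CHD4-labelled list at 3.50. Kcne1, Kcne1l, Kcne2, Kcne4, Kcnip2 and Kcnmb1 had no peak at the ends or in the body.

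**Figure D3:**
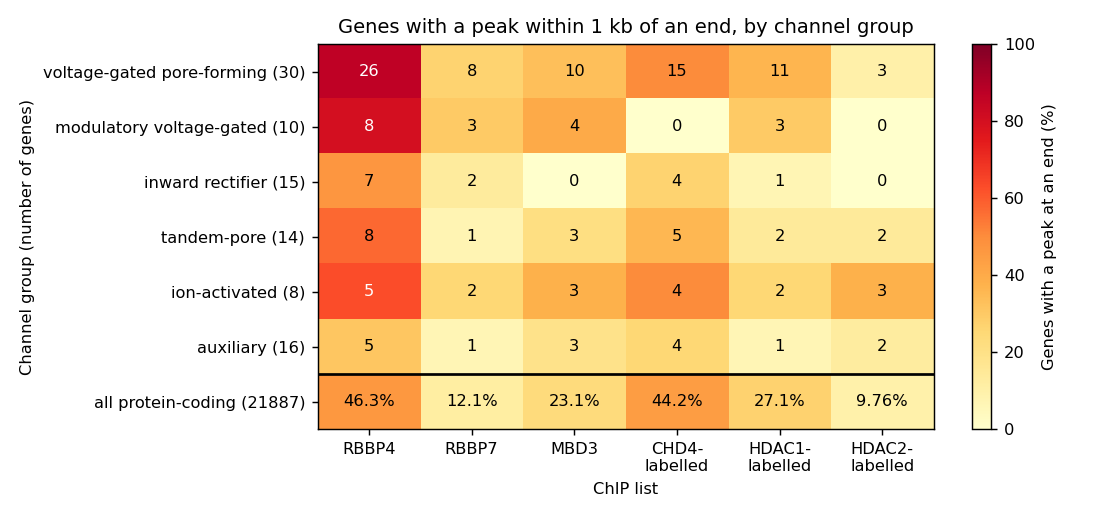
Number of genes of each channel group with a peak within 1 kb of a gene end in each ChIP list (numbers), shaded by the percentage of the group, with the percentage of all 21887 protein-coding genes in the bottom row. RBBP4 reaches 26 of 30 voltage-gated pore-forming genes and 5 of 16 auxiliary genes, and the CHD4-labelled list reaches 0 of 10 modulatory genes.

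Over all members, 19 Kcn genes (20.2%) had no peak of any list at the ends or in the body, against 37.9% of all genes. The 459 peaks at the other 75 genes merged into 204 regions, 82 at ends and 122 in the interior. One list alone made up 34 of the 82 end regions and 73 of the 122 interior regions. All 6 lists met in 5 end and 4 interior regions, which are the ones of Kcnb2, Kcnc1, Kcnma1, Kcnn1 and Kcnq3, and of Kcnd3, Kcnh7 and Kcnk10. Peaks were not merged over all genes, so none of these region counts has a background share beside it.

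Accessibility regions near Kcn genes came from 1 of the 4 lists. In FTneg cells, 12 of 94 Kcn genes (12.8%, interval 7.46 to 21.0) had a region of higher accessibility in KO than in WT embryos in the body or within 100 kb, against 5.36% of all genes. None of the 94 had a region of the other lists, against 0.297% of all genes for WT-higher regions in FTneg cells, 0.206% for KO-higher and 0.196% for WT-higher regions in FTpos cells. These 3 lists hold few regions, so a count of 0 is near their background. By length, the KO-higher share was 8.33% of Kcn genes under 20 kb, against 3.51% of all genes of that length, 17.1% against 5.78% from 20 to 100 kb, and 13% against 13.1% at 100 kb or more. The share at the longest channel genes was thus close to that of other genes of their length.

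The 12 genes shared 10 regions, since Kcn genes lie in clusters, and the genes are not independent of each other. The region of largest area, the score summed over −log10 p that the authors deposited, was chr3:107150452-107151588, with an area of 1815 and rank 23 of the 727 regions in the list. It lies 31555 bp from Kcna10 and 35447 bp from Kcna2, a Shaker-type channel of axons, and overlapped peaks of RBBP4 at 6.34 and RBBP7 at 4.53. The median area of the 10 regions was 642, against 704 over the whole list, so most were not among the larger ones. A peak of at least 1 ChIP list overlapped 8 of the 10, against 71.3% of the 727.

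A pair of the regions lay inside a channel gene. The one in Kcnk10, chr12:98562392-98563180, had an area of 706 and fell within the region described above where all 6 ChIP lists met. The one in Kcnq5, chr1:21805018-21805586, had an area of 584 and no ChIP peak. Near Kcnq3, chr15:66324079-66325050 had an area of 603, lay 37443 bp from the gene and overlapped RBBP4 at 6.77, the HDAC2-labelled list at 5.36 and MBD3 at 3.93. Near Kcna6, a Shaker-type gene, chr6:126767664-126768480 had an area of 626, lay 26830 bp away and overlapped RBBP4 alone, at 6.74. The region near Kcnk16 and Kcnk5, chr14:20225570-20226055, had an area of 627 and also overlapped RBBP4 alone, at 4.74. In these 5 regions and the one near Kcna10, a Kcn gene was the nearest protein-coding gene.

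The remaining 4 regions lay inside other genes. Near Kcnc4, which encodes a rapidly inactivating channel, chr3:107477441-107478793 had an area of 668 and chr3:107479073-107480244 an area of 589, both inside Slc6a17. The first of them overlapped RBBP7 at 10.2, RBBP4 at 8.66, the CHD4-labelled list at 7.80, the HDAC1-labelled list at 6.46 and MBD3 at 4.70. The region near Kcnj9, a G protein-gated channel, and Kcnj10, chr1:172314842-172315169, had an area of 658, lay inside Igsf8 and overlapped the CHD4-labelled list at 4.55 and RBBP4 at 4.05. The region near Kcnj1, a kidney channel, chr9:32449761-32450529, had an area of 883, lay inside Fli1 and overlapped no ChIP peak. Which gene, if any, these regions act on was not measured.

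**Figure D4:**
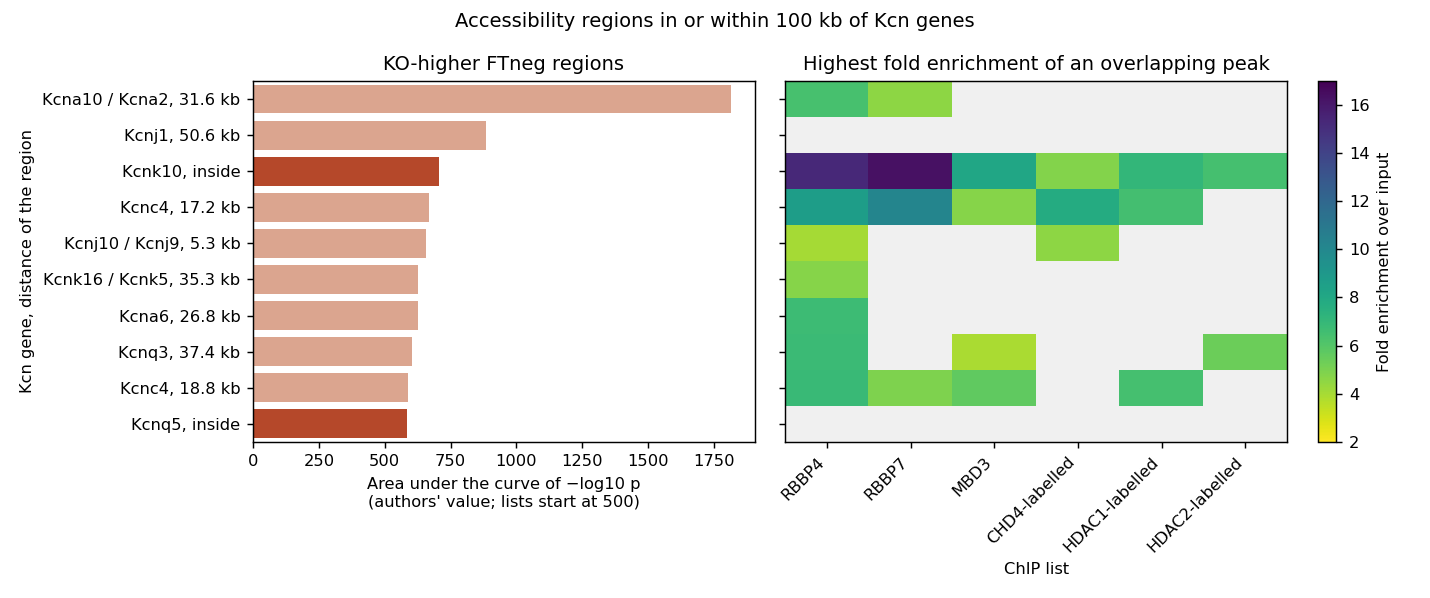
The 10 KO-higher FTneg accessibility regions in or within 100 kb of a Kcn gene, ordered by area (left, authors' summed −log10 p, dark bars for regions inside the gene), with the distance in kb to the nearer gene of each label, and the highest fold enrichment of an overlapping peak in each ChIP list (right, pale grey for none). The region near Kcna10 and Kcna2 has an area of 1815, and the region inside Kcnk10 is the one overlapped by all 6 lists.

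Other ion channel families gave a mixed picture beside the Kcn genes. RBBP4 was at the ends of 59 of 94 Kcn genes (62.8%), 17 of 26 calcium channel genes (65.4%) and 7 of 14 voltage-gated sodium channel genes (50%). The CHD4-labelled list was at the ends of 32 Kcn genes (34.0%), 11 calcium channel genes (42.3%) and 1 sodium channel gene (7.14%). All 6 lists met at the ends of Cacna1b and Cacna2d3. KO-higher FTneg regions lay in or within 100 kb of 12 Kcn genes (12.8%), 4 calcium channel genes (15.4%) and 2 sodium channel genes (14.3%). MBD3 was at the ends of 23 Kcn genes (24.5%) and 13 calcium channel genes (50%), and the HDAC1-labelled list at the ends of 20 Kcn genes (21.3%) and 11 calcium channel genes (42.3%). Kcn genes were thus near calcium channel genes in RBBP4 and accessibility and below them in MBD3 and the HDAC1-labelled list. The median length was 32.7 kb for Kcn genes and 104 kb for calcium channel genes, and no test of the difference was made. Of 9 genes for partners of potassium channels outside the Kcn symbols, 3 had RBBP4 at an end (33.3%) and 6 had no end peak (66.7%).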

How the data were processed

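The series held 21 mouse samples, and the 94 genes and the gene lists were chosen with earlier results of these data known. Genrich, MACS2 2.2.7.1, deepTools, BWA and SAMtools 1.10 are named in the submitters' processing notes, with build mm10, and their settings are not given in the sources used here. Chromatin was fixed with 5 mM DSG and 1% PFA and sonicated for 10 minutes, input 3 served RBBP4 and RBBP7, input 2 served MBD3 and CHD4, and input 1 served both deacetylases, per the labels.

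The fold enrichment of each ChIP peak is a ratio over input deposited by the authors. The −log10 q and −log10 p per peak are also the authors' deposited values. Accessibility regions carry a score, the area deposited by the authors, who kept areas of at least 500 and called each list by setting 1 genotype against the other.

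Peaks were assigned to RefSeq genes of GRCm38.p6 by an overlap of at least 1 bp with the body, with 1 kb around either end, or, for accessibility, with 100 kb around the body. Strand and start sites came from the promoter table. Merged regions join overlapping peaks of any list. Genes named were those with an accessibility region, 5 or 6 lists at the ends, the most peaks or the highest fold of a list, plus members without peaks. Kcna3, Kcnc1 and others fall under several of these, while Kcnn4, Kcnu1, Kcnh1 and Kcnh6, the promoter of Kcna10 and the count of genes with another gene end within 2 kb were chosen after the values were seen. Counts cover all 94 genes, and the values of 1 member and of a further channel family are not reported here. Counting was checked on simulated data. Python 3.11.15, pandas 2.3.3, SciPy 1.17.1 and matplotlib 3.10.9 were used.

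Depth is unknown, no list has a replicate, and no test was made. Alternatives covered stricter peaks, lists of equal length, other windows, other distances, lists left out, curated genes and the names that the lists carry.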

Additional observations from a re-analysis of the deposited data

How the results depend on the processing

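No paired analysis was possible because the embryos are combined in each accessibility list and each ChIP protein has 1 library. Of 118 alternative counts of Kcn genes, 84 were within 1.5 times the reported count, and 101 left the share on the same side of the share of all genes. Some of these counts could not move. All 94 Kcn genes have a curated transcript, so that setting returns the same counts. The 3 accessibility lists without a region near a Kcn gene stayed at 0, except for 1 gene within 200 kb. The tallies therefore include outcomes that were fixed in advance. With a −log10 q of at least 10, end peaks were at 14 Kcn genes (14.9%, against 36.3% of all genes) for the CHD4-labelled list, a wider gap than with all peaks. They were at 6 (6.38% against 8.67%) for HDAC1-labelled, 2 (2.13% against 2.74%, the other side) for HDAC2-labelled, 13 (13.8% against 13.2%) for MBD3 and 4 (4.26% against 2.79%) for RBBP7. Body peaks were then at 16 (17% against 39.4%) for CHD4-labelled, 12 (12.8% against 9.89%) for HDAC1-labelled, 3 (3.19% against 3.22%) for HDAC2-labelled, 16 (17% against 15.8%) for MBD3 and 16 (17% against 8.31%) for RBBP7. All 6 lists met at 0 Kcn genes (0.265% of all genes) and no list was at 48 (51.1% against 51.6%).

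With lists of 5517 peaks each, end peaks were at 5 Kcn genes (5.32% against 22.7% of all genes) for CHD4-labelled, again a wider gap, and at 15 (16% against 12.2%) for RBBP4, a narrower one. They were at 11 (11.7% against 15.9%) for HDAC1-labelled, 14 (14.9% against 13.3%) for MBD3 and 4 (4.26% against 2.64%) for RBBP7. Body peaks were then at 8 (8.51% against 24.3%) for CHD4-labelled, 22 (23.4% against 17.6%) for HDAC1-labelled, 16 (17% against 15.9%) for MBD3, 24 (25.5% against 15.7%) for RBBP4 and 16 (17% against 7.9%) for RBBP7. All 6 lists met at 0 Kcn genes (0.617% of all genes) and no list was at 62 (66.0% against 62.6%). Both settings keep fewer peaks by construction. Ends within 500 bp left 2 genes with all 6 lists (2.13% against 2.32%), and 7 genes (7.45% against 6.51%) had the other 5 lists with the HDAC2-labelled list left out. MBD3 end peaks were at 20 genes (21.3%) when the summit had to lie in the window, against 22.2% of all genes, and at 19 within 500 bp (20.2%), against 21.1%.

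With the name that each list carries in place of the sample label, the shortfall at ends passes to HDAC1, at 32 Kcn genes (34.0% against 44.2% of all genes). CHD4 was then at the ends of 10 (10.6% against 9.76%) and in the bodies of 15 (16% against 11.6%), and HDAC2 at the ends of 20 (21.3% against 27.1%) and in the bodies of 35 (37.2% against 29.4%). This alternative, like the one without neighbouring gene ends, was chosen after seeing the data. For KO-higher FTneg regions, 2 genes (2.13% against 1.05%) were left with an area of at least 1000 and 6 (6.38% against 2.22%) when each region counted for its nearest gene. Within 200 kb, 1 Kcn gene, Kcnn2, gained a WT-higher FTneg region (1.06% against 0.489%). Unknown depth and list length limit every absence of a peak.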

Other observations

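Among the accessibility regions within 200 kb of a Kcn gene, the one of largest area lay outside the distance used for the counts. It belonged to the WT-higher FTneg list, at chr18:45122904-45123930, 144820 bp from Kcnn2, with an area of 1932 and rank 6 of the 53 regions of that list. It overlapped peaks of RBBP4 at 9.37, the HDAC1-labelled list at 8.12, the CHD4-labelled list at 7.80, RBBP7 at 5.28 and MBD3 at 4.43. It was singled out after its values were seen.

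Further KO-higher FTneg regions lay between 100 and 200 kb from a Kcn gene. One near Kcnk13, chr12:99853337-99853895, lay inside Efcab11, 109254 bp from the channel gene, and overlapped RBBP4 at 7.35, RBBP7 at 6.39 and MBD3 at 2.95. One near Kcnh2, chr5:24124240-24124823, lay inside Klhl7, 194766 bp away, and overlapped RBBP4 at 4.67.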
